A study of Mus musculus with 48 samples.

Results

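Mouse hepatocytes cultured as in vitro spheroids were compared with freshly isolated primary hepatocytes, the cell fraction from which such spheroids are formed. The comparison took 5 of the 16 samples of the series, 2 samples of in vitro spheroids and 3 of isolated hepatocytes, each of them the sum of 3 technical libraries, or 15 libraries of 48. All 5 samples share the genotype label WT Albino and the strain label C57BL/6N, and none carries a transgene in its label. The labels used here give neither age nor sex, no day of harvest for the spheroids, and no statement on whether the samples of a group came from separate mice, so that p-values measure the spread between these samples. That spread was beyond the spread of technical libraries: over genes, the variance averaged 10.95 times the Poisson variance between the hepatocyte samples and 12.63 times between the spheroid samples, against 1.28 to 2.66 times between the libraries of a sample. The study's methods describe a liver perfused with a collagenase mixture, hepatocytes enriched on a Percoll gradient, and seeding into ultra-low adherence wells in a serum medium with insulin, transferrin, selenium and dexamethasone, later exchanged in part for a serum-free medium with less dexamethasone. The isolated fraction is therefore a digested and centrifuged preparation, not liver in place, and days in culture, medium and spheroid shape cannot be told apart in this design.

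Hepatocytes carry most of the drug metabolism of the body. Phase I enzymes, among them the cytochromes P450, oxidize or hydrolyse a compound, phase II enzymes attach a sulfate, glucuronide, glutathione or methyl group, and membrane transporters move the products into blood or bile. Many of these genes are set by nuclear receptors and by the circulating hormones that reach the liver, and hepatocytes taken out of the liver are known to lose part of this expression in culture while they rebuild their cytoskeleton and contacts. Spheroids, in which the cells aggregate without a flat surface, are used to slow that loss.

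Between 2718518 and 3573075 unique counts were on genes in the 3 hepatocyte samples, and 3247327 and 3447643 in the 2 spheroid samples. Spheroids and hepatocytes separated along the first principal component, which held 73.6% of the variance. Counts of the mitochondrial genome took 0.997% to 1.23% of the hepatocyte samples and 0.859% to 1.01% of the spheroid samples. Levels are given in CPM, counts scaled to a common library size by the trimmed mean of M-values (TMM). Hepatocyte markers were abundant in all 5 samples, with a sum over 18 markers of 27768, 29206 and 34634 CPM in hepatocytes and 17087 and 22434 CPM in spheroids. In bulk samples fewer cells of a type and less RNA per cell cannot be told apart. Hepatocyte sample 2 stood apart in genes that differ between the zones of the liver lobule. The summed periportal genes were at 17008, 9573 and 18532 CPM in hepatocytes and 7224 and 9773 CPM in spheroids. The summed pericentral genes were at 10030.1, 16329 and 11845 CPM in hepatocytes and 3136 and 4736 CPM in spheroids, so that hepatocyte sample 2 was the lowest of its group in the first sum and the highest in the second.

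Among 12247 genes with enough counts to be tested, 996 were higher in spheroids (8.13%) and 1116 were lower (9.11%), at an adjusted p under 0.05 in edgeR's quasi-likelihood test and a log2 fold change beyond 1. A gene is said to rise or fall where it passed both limits. Genes with few counts in a group were tested only through the other group, so their direction was in part fixed in advance. Among genes named below from lists, these include Slc22a28, Slc22a27, Phgdh, Eda2r, Ccl2, Tubb2b, Mmp12, Ankrd1, Notum, Axin2 and Wnt2. Log2 fold changes are spheroids minus hepatocytes, and ± gives their standard error. The median gene moved by 0.007, and this split rests on the scaling, since division by library size alone shifted the median to 0.27 and gave 1531 higher and 808 lower. Removing single samples left between 705 higher genes (without spheroid sample 1) and 970, and between 761 lower genes (also without spheroid sample 1) and 1080.

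The culture response by function is drawn in the plot of log2 fold changes by gene list. Where drug metabolism changed, it mostly fell. Of 180 tested members of its 6 lists, 16 rose and 76 fell, with a median log2 fold change of -0.86, beside the 8.13% and 9.11% of all genes. Liver functions outside drug metabolism gave 23 higher and 152 lower of 451, with a median of -0.68. Cytoskeleton, adhesion and matrix genes went the other way, with 58 higher and 13 lower of 228 and a median of 0.51. Stress genes split into 53 higher and 45 lower of 243, with a median of -0.03. Genes of growth, translation, energy and turnover gave the fewest calls, with 9 higher and 7 lower of 290. For every list below, shares near 8.13% higher and 9.11% lower are those of all genes tested and are no result about the list.

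**Figure D1:**
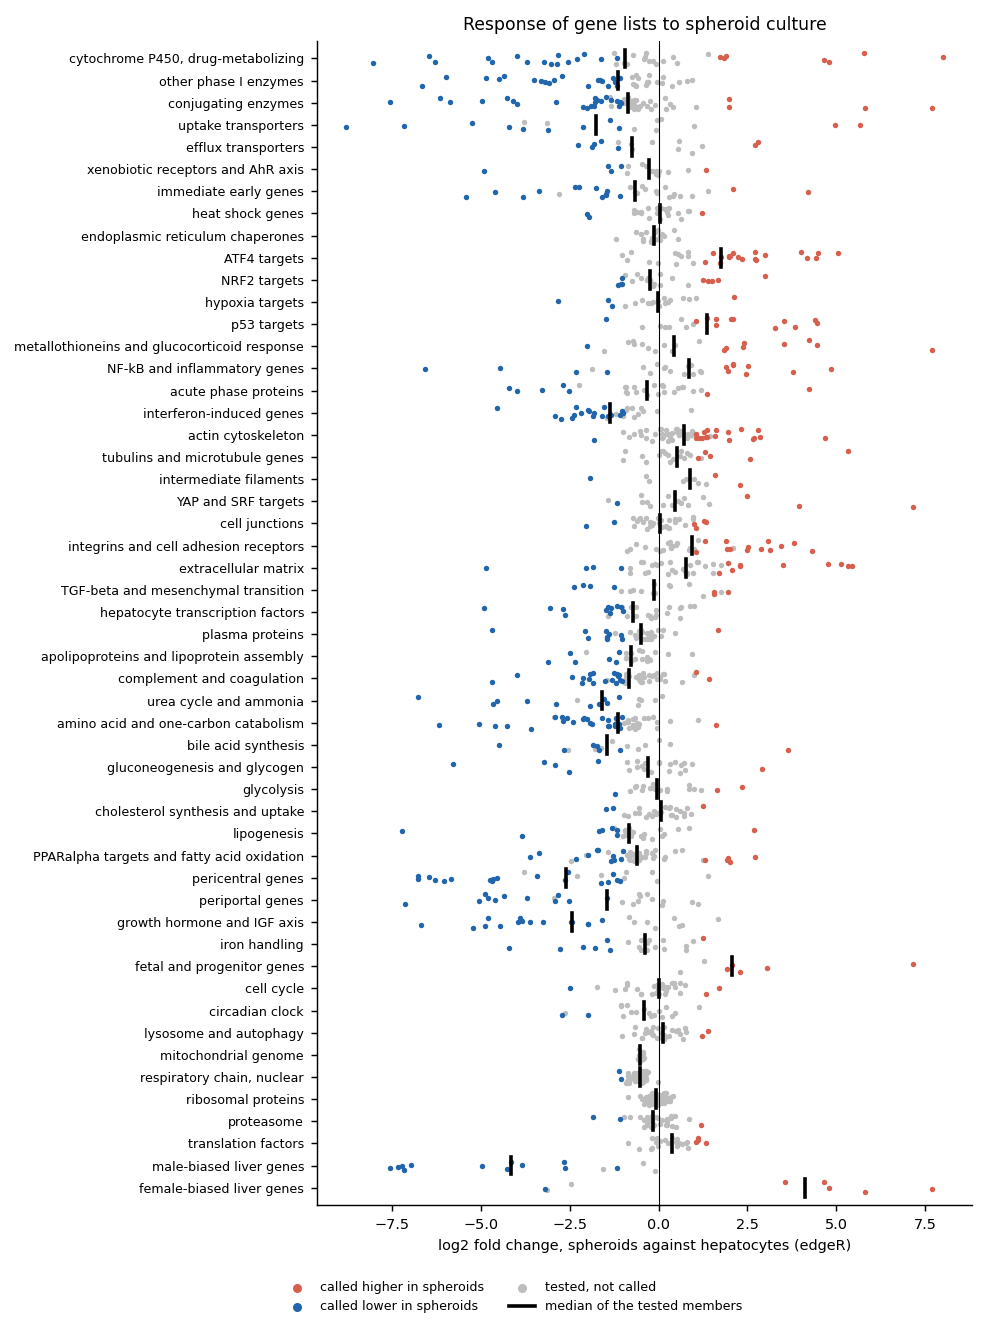
Log2 fold change (spheroids minus hepatocytes, x axis) of each tested gene in the lists with at least 7 tested members (y axis), with orange points higher in spheroids, blue points lower, grey points not called and a black bar at the median of each list. ATF4 targets (median 1.75) lie to the right, and pericentral genes (-2.60) and growth hormone genes (-2.44) to the left. Several lists, among them the fetal and sex-biased ones, hold members that were tested only through the group where they are high.

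The largest gains included drug-metabolizing enzymes. Cyp1a1, a P450 that oxidizes polycyclic aromatic compounds, was at 1.19, 2.04 and 1.22 CPM in the hepatocyte samples and 388 and 389 CPM in the spheroid samples (log2 fold change 7.997 ± 0.24, adjusted p = 1.41e-05). Sult1e1, which sulfates oestrogens, was at 1.48, 1.7 and 2.04 CPM in the hepatocyte samples and 248 and 476 CPM in the spheroid samples (log2 fold change 7.69 ± 0.38, adjusted p = 4.74e-05). Both genes were near the limit of counting in every hepatocyte sample and abundant in every spheroid sample. They had enough counts to be tested through the spheroids alone. Of the 10 genes with the largest gains at 20 CPM or more, the next were 9530034E10Rik, Wnt4, Cd24a, Sprr1a, Ptgfr, Gipc2, Plcl1 and Sult2a1, with mean levels of at most 1.14 CPM in hepatocytes. Wnt4, a secreted Wnt ligand, was at 0, 0 and 0.408 CPM in hepatocytes and 43.1 and 8.11 CPM in spheroids (240.0-fold, 95% counting interval 42.7 to 9550, adjusted p = 0.00346). Cd24a, a surface glycoprotein of immature epithelial cells, was at 0.296, 0.34 and 1.22 CPM in hepatocytes and 149 and 26.4 CPM in spheroids (165-fold, 95% counting interval 70.4 to 510.0, adjusted p = 0.002). The livers held Cd24a at 32.3, 16.75 and 8.74 CPM, so that spheroid sample 2 lay within their range and the isolated hepatocytes below it. Sprr1a, a cornified envelope protein that also appears in stressed cells, was at 0.296, 0.68 and 2.45 CPM in hepatocytes and 181 and 25.5 CPM in spheroids (log2 fold change 6.59 ± 0.99, adjusted p = 0.0034). All 3 genes were several times higher in spheroid sample 1 than in spheroid sample 2. Absence of overlap between the groups was a condition for naming the largest changes, so it adds no support. For genes named from lists it describes their levels only. Samples this few can lie apart without a change, and the share of all tested genes that do is not given. Limma-voom did not call Cd24a (adjusted p = 0.0637) or Sprr1a (adjusted p = 0.0808).

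Several enzymes were among the largest losses. The 10 genes with the largest falls were Cyp2c54, Serpina4-ps1, Cyp4a12b, Nat8, Clec2h, Hsd3b5, Elovl3, Slco1a1, Alas2 and Hsd17b6. Cyp2c54, a P450 of the arachidonate-oxidizing 2c family, was at 169, 433 and 393 CPM in the hepatocyte samples and 0.73 and 1.8 CPM in the spheroid samples (log2 fold change -8.04 ± 0.64, adjusted p = 0.00031). Slco1a1, an uptake transporter of the basolateral membrane, was at 717, 1000 and 952 CPM in the hepatocyte samples and 4.87 and 7.51 CPM in the spheroid samples (log2 fold change -7.17 ± 0.35, adjusted p = 4.74e-05). Hsd17b6, a steroid and retinol dehydrogenase, was at 249, 38.4 and 245 CPM in hepatocytes and 0.974 and 1.5 CPM in spheroids (log2 fold change -7.15 ± 1.06, adjusted p = 0.00317). Its hepatocyte levels spread more than 6-fold, since hepatocyte sample 2 was low, and limma-voom did not call Hsd17b6 (adjusted p = 0.0871). Reads that fit several genes were not counted, so levels of close relatives such as the Cyp2c, Cyp4a12, Ces1 and Mup genes are uncertain.

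Drug-metabolizing P450s went in both directions. Of 38 tested, 7 rose and 16 fell (median -0.94), against 4 higher without spheroid sample 2 and 10 lower without spheroid sample 1. Together they amounted to 14667, 18783 and 17917 TPM in hepatocytes and 9860 and 12407 TPM in spheroids, on the TPM scale, which allows for gene length. Cyp2b10, the best known target of the constitutive androstane receptor CAR, was at 27.6, 14.96 and 23.6 CPM in the hepatocyte samples and 1005 and 1417 CPM in the spheroid samples (log2 fold change 5.77 ± 0.32, adjusted p = 6.85e-05). Cyp2a4, a steroid hydroxylase of the female liver, was at 2.08, 2.04 and 0 CPM in hepatocytes and 38.95 and 36.95 CPM in spheroids (log2 fold change 4.66 ± 0.54, adjusted p = 0.00133), and did not pass in a fit over all 5 groups of the series (adjusted p = 0.0568). In both genes the spheroid samples lay far above every hepatocyte sample, which adds no support to their calls.

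The abundant P450s did not share a fate. Cyp2e1, which oxidizes ethanol and paracetamol, was at 1895, 2604 and 2640 CPM in the hepatocyte samples and 88.8 and 93.1 CPM in the spheroid samples (log2 fold change -4.71 ± 0.30, adjusted p = 0.000123). Cyp2c50 was at 375, 742 and 653 CPM in hepatocytes and 7.06 and 6.01 CPM in spheroids (log2 fold change -6.48 ± 0.41, adjusted p = 0.000123), and Cyp2c23 at 493, 631 and 676 CPM in hepatocytes and 15.3 and 27.3 CPM in spheroids (log2 fold change -4.82 ± 0.34, adjusted p = 0.000166). Cyp1a2, the sister gene of Cyp1a1 and an oxidizer of caffeine, was at 704, 1388 and 870.4 CPM in hepatocytes and 227 and 411 CPM in spheroids (log2 fold change -1.63 ± 0.38, adjusted p = 0.0186) and did not pass without spheroid sample 1 (adjusted p = 0.0866). Thus both members of the Cyp1a family changed, and in opposite directions. Cyp3a11, the main target of the pregnane X receptor PXR, was at 1028, 1449 and 1185 CPM in hepatocytes and 856 and 1184 CPM in spheroids (log2 fold change -0.26 ± 0.26, adjusted p = 0.489). Its groups overlapped, as did those of Cyp2c29, at 945, 1503 and 1331 CPM in hepatocytes and 797 and 1108 CPM in spheroids (log2 fold change -0.40 ± 0.28, adjusted p = 0.321). Por, the reductase that feeds electrons to all microsomal P450s, was at 598, 404 and 168 CPM in hepatocytes and 386 and 456 CPM in spheroids (log2 fold change 0.11 ± 0.44, adjusted p = 0.879).

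The promoter of Cyp1a1 is shown because this gene rose most and is the classic target of the aryl hydrocarbon receptor (AhR). The sequence covers the 250 bases before the start of the gene on the plus strand, chr9:57697363-57697612 of build GRCm38.p6 (RefSeq). Capitals mark the AhR core GCGTG, which begins 54 bases before the start, and the TATA box TATAAA, which begins 30 bases before it.
Cyp1a1: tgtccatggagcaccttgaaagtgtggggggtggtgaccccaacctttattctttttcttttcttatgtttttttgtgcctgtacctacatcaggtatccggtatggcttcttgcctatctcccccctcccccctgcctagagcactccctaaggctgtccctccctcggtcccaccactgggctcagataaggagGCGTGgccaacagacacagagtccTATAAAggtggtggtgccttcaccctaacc
Both strands were searched for each motif, the motifs do not overlap, and each was found once. GCGTG occurs in 35.2% and TATAAA in 15.7% of the 27025 mouse genes with a promoter window of 250 bases before to 50 after the start, so either match alone is common.

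Among receptors of the xenobiotic response and genes of the AhR axis, more fell than rose. Of 16 tested receptors and axis genes, 1 rose and 4 fell, against 2 lower without hepatocyte sample 2 and 1 without spheroid sample 1. Ahr itself was at 22.5, 58.5 and 24.1 CPM in hepatocytes and 31.9 and 29.7 CPM in spheroids (log2 fold change -0.18 ± 0.41, adjusted p = 0.767). Tiparp, a feedback inhibitor that AhR induces in many tissues, was at 26.98, 24.5 and 19.2 CPM in hepatocytes and 25.1 and 31.5 CPM in spheroids (log2 fold change 0.26 ± 0.24, adjusted p = 0.468). Nqo1, a quinone reductase under AhR and NRF2, was at 21.9, 17.7 and 10.6 CPM in hepatocytes and 21.9 and 38.8 CPM in spheroids (log2 fold change 0.84 ± 0.36, adjusted p = 0.127). In each of these 3 genes the groups overlapped. Nr1i2, which encodes PXR, was at 130.5, 109 and 97.03 CPM in hepatocytes and 89.6 and 123 CPM in spheroids (log2 fold change -0.08 ± 0.20, adjusted p = 0.785). Nr1i3, which encodes CAR, was at 308, 393 and 292 CPM in hepatocytes and 77.4 and 168 CPM in spheroids (log2 fold change -1.43 ± 0.33, adjusted p = 0.0187), with 74.9% of its exon bases shared with Tomm40l in this counting, and did not pass without spheroid sample 1 (log2 fold change -0.97). Nr0b2, the corepressor SHP that restrains bile acid synthesis, was at 86.9, 191 and 156 CPM in hepatocytes and 7.55 and 1.5 CPM in spheroids (log2 fold change -4.92 ± 0.57, adjusted p = 0.00138).

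**Figure D2:**
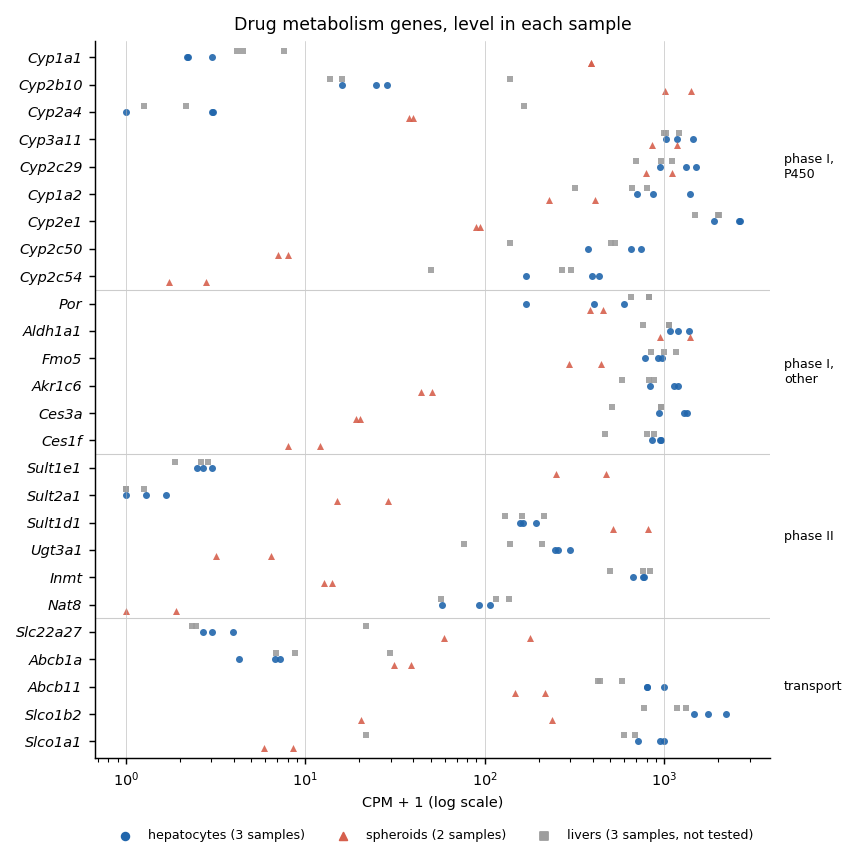
CPM + 1 on a log scale (x axis) of named drug metabolism genes (y axis) in each of 3 hepatocyte samples (blue circles), 2 spheroid samples (orange triangles) and, side by side only, 3 livers (grey squares). Cyp1a1, Cyp2b10, Sult1e1 and Sult2a1 lie to the right in both spheroid samples, Cyp3a11 and Aldh1a1 overlap between the groups, and Cyp2c54, Ces1f, Inmt and Slco1a1 lie to the left.

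Many other phase I enzymes fell. Of 38 tested, 20 were lower and 0 higher (median -1.15). Ces1f, a carboxylesterase that hydrolyses ester drugs, was at 944, 854 and 962 CPM in the hepatocyte samples and 7.06 and 11.1 CPM in the spheroid samples (log2 fold change -6.67 ± 0.31, adjusted p = 4.74e-05), and Ces3a of the same family was at 942, 1293 and 1349 CPM in hepatocytes and 18.3 and 19.2 CPM in spheroids (log2 fold change -5.99 ± 0.31, adjusted p = 5.45e-05). Akr1c6, a hydroxysteroid dehydrogenase, was at 830.2, 1189 and 1141 CPM in hepatocytes and 43.1 and 50.2 CPM in spheroids (log2 fold change -4.50 ± 0.28, adjusted p = 0.00012). In all 3 the lowest hepatocyte sample exceeded the higher spheroid sample more than 10-fold. Aldh1a1, the main retinal dehydrogenase of liver, was at 1072, 1383 and 1188 CPM in hepatocytes and 953 and 1388 CPM in spheroids (log2 fold change -0.05 ± 0.25, adjusted p = 0.895), and Adh1, an alcohol dehydrogenase, at 1351, 1351 and 1477 CPM in hepatocytes and 820.1 and 1050 CPM in spheroids (log2 fold change -0.57 ± 0.22, adjusted p = 0.0946).

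More conjugating enzymes fell than rose. Of 55 tested, 4 rose and 22 fell (median -0.87), and 3 of the 4 gains were sulfotransferases. Sult1e1 and Sult2a1, near 0 in hepatocytes, had enough counts to be tested only through the spheroids, so their direction was fixed in advance. Sult1d1, which sulfates catecholamines and small phenols, was at 192, 163 and 156 CPM in the hepatocyte samples and 521 and 816 CPM in the spheroid samples (log2 fold change 1.97 ± 0.23, adjusted p = 0.00147). Sult2a1, which sulfates bile acids and steroids, was at 0.296, 0.68 and 0 CPM in hepatocytes and 27.99 and 14.1 CPM in spheroids (63.7-fold, 95% counting interval 21.4 to 312, adjusted p = 0.00121). The remaining gain was Gsta1, a glutathione transferase, at 22.5, 5.44 and 8.15 CPM in hepatocytes and 67.2 and 29.4 CPM in spheroids (log2 fold change 1.98 ± 0.56, adjusted p = 0.0364), which did not pass without hepatocyte sample 2 (adjusted p = 0.0682), hepatocyte sample 3 (adjusted p = 0.116) or spheroid sample 1 (adjusted p = 0.241). Inmt, an N-methyltransferase, was at 759.9, 771 and 672 CPM in hepatocytes and 13.1 and 11.7 CPM in spheroids (log2 fold change -5.88 ± 0.25, adjusted p = 3.78e-05). Ugt3a1 was at 246, 299 and 257 CPM in hepatocytes and 2.19 and 5.41 CPM in spheroids (log2 fold change -6.16 ± 0.35, adjusted p = 7.92e-05), and the glucuronyl transferase Ugt2b1 at 655, 1432 and 1218 CPM in hepatocytes and 17.04 and 123 CPM in spheroids (log2 fold change -3.98 ± 0.81, adjusted p = 0.0111). Ugt2b1 was lower in spheroid sample 1 than in spheroid sample 2.

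More transporters fell than rose. Of 18 uptake transporters tested, 2 rose and 9 fell (median -1.76). Of 15 efflux transporters, 2 rose and 5 fell (median -0.75), against 3 lower without hepatocyte sample 2 or without spheroid sample 1. Slco1b2, the main organic anion carrier into hepatocytes, was at 1466, 2204 and 1757 CPM in hepatocytes and 19.5 and 236 CPM in spheroids (log2 fold change -3.83 ± 0.91, adjusted p = 0.0205) and did not pass without hepatocyte sample 3 (adjusted p = 0.0517). Slc22a28 was at 8.6, 23.8 and 19.2 CPM in hepatocytes and 0 and 0 CPM in spheroids, at least 21.1-fold lower in spheroids against a floor of 3 counts per sample. Its neighbour in the family, Slc22a27, rose and was at 2.96, 1.7 and 2.04 CPM in hepatocytes and 58.2 and 179 CPM in spheroids (log2 fold change 5.68 ± 0.55, adjusted p = 0.000704). Abcb11, the bile salt export pump, was at 806, 800.1 and 1004 CPM in hepatocytes and 147 and 217 CPM in spheroids (log2 fold change -2.26 ± 0.26, adjusted p = 0.00133). Abcb1a, the P-glycoprotein that expels lipophilic drugs, was at 6.23, 5.78 and 3.26 CPM in hepatocytes and 37.7 and 30.3 CPM in spheroids (log2 fold change 2.71 ± 0.32, adjusted p = 0.00134), with 10.1% of its exon bases shared with Gm42686.

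Many immediate early genes fell in spheroids from high levels in the isolated hepatocytes. These genes respond within minutes to injury, and they are known to rise while liver is digested. Of 29 tested, 2 rose and 12 fell, against 7 lower without hepatocyte sample 3 and 6 without spheroid sample 1. Fos, a subunit of AP-1, was at 214, 505 and 363 CPM in the hepatocyte samples and 16.8 and 53.8 CPM in the spheroid samples (log2 fold change -3.36 ± 0.56, adjusted p = 0.00515), beside 3.77, 2.89 and 2.38 CPM in the 3 livers of the series. Jun, its partner, was at 300.1, 632 and 614 CPM in hepatocytes and 121 and 219 CPM in spheroids (log2 fold change -1.60 ± 0.39, adjusted p = 0.0228) and did not pass without hepatocyte sample 3 (adjusted p = 0.0678) or spheroid sample 1 (adjusted p = 0.118). Junb was at 135, 273 and 238 CPM in hepatocytes and 43.6 and 40.2 CPM in spheroids (log2 fold change -2.36 ± 0.32, adjusted p = 0.0021), beside 35.3, 16.2 and 15.9 CPM in livers. Socs3, which ends interleukin-6 signalling, was at 108, 310.3 and 258 CPM in hepatocytes and 8.28 and 1.8 CPM in spheroids (log2 fold change -5.42 ± 0.67, adjusted p = 0.0017), beside 11.8, 10.1 and 10.8 CPM in livers. In Fos, Junb and Socs3 the isolated hepatocytes lay above both the spheroids and the livers, and the part of the isolation in the falls of this list was not tested. Klf6, an injury-responsive zinc finger factor, went the other way at 15.7, 14.6 and 19.6 CPM in hepatocytes and 271 and 339.7 CPM in spheroids (log2 fold change 4.20 ± 0.20, adjusted p = 4.74e-05).

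Targets of ATF4 had the highest median of the stress lists. ATF4 is the transcription factor of the integrated stress response, through which cells short of amino acids raise amino acid synthesis, transport and tRNA charging. Of 31 tested, 19 rose and 0 fell, with a median log2 fold change of 1.75. Asns, asparagine synthetase, was at 11.3, 29.6 and 21.6 CPM in the hepatocyte samples and 322 and 433 CPM in the spheroid samples (log2 fold change 4.19 ± 0.35, adjusted p = 0.000377). Psat1, of serine synthesis, was at 11.6, 6.46 and 7.34 CPM in hepatocytes and 199 and 184 CPM in spheroids (log2 fold change 4.48 ± 0.24, adjusted p = 5.84e-05), and Phgdh of the same path at 1.78, 4.42 and 2.85 CPM in hepatocytes and 73.03 and 23.4 CPM in spheroids (log2 fold change 4.00 ± 0.56, adjusted p = 0.00251). Every spheroid sample exceeded every hepatocyte sample in these genes. Mthfd2, the mitochondrial folate enzyme, was at 0.889, 6.46 and 6.52 CPM in hepatocytes and 106 and 86.8 CPM in spheroids (log2 fold change 4.43 ± 0.48, adjusted p = 0.00101). Fgf21, a secreted stress hormone of liver, was at 22.5, 4.76 and 12.2 CPM in hepatocytes and 91.04 and 85.3 CPM in spheroids (log2 fold change 2.72 ± 0.45, adjusted p = 0.00491). Gars, the glycyl-tRNA synthetase, was at 117, 136 and 105 CPM in hepatocytes and 536 and 486 CPM in spheroids (log2 fold change 2.10 ± 0.18, adjusted p = 0.000453). In Mthfd2, Fgf21 and Gars, too, both spheroid samples lay above every hepatocyte sample, which adds no support to the call of any gene of this list. The factor's own transcript was not called: Atf4 was at 110.0, 156 and 216 CPM in hepatocytes and 235 and 228 CPM in spheroids (log2 fold change 0.53 ± 0.27, adjusted p = 0.181). Ddit3, which encodes the stress factor CHOP, was at 22.8, 19.4 and 24.5 CPM in hepatocytes and 39.7 and 22.2 CPM in spheroids (log2 fold change 0.48 ± 0.29, adjusted p = 0.249).

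Stretches of the ATF4 target promoters are shown because several of the genes share the composite element that C/EBP and ATF factors bind, TGATGNAA, a motif that was chosen after the values were seen. RefSeq windows were matched for 18 ATF4 targets that rose and 9 that were not called. The element was present on either strand in 9 of the 18, in 1 of the 9, and in 4.51% of all 27025 genes with a window. Capitals mark the element, with up to 16 bases on each side in 7 of these genes, in build GRCm38.p6, written 5′ to 3′ on the strand that holds it.
Asns (chr6:7693210-7693248, minus strand): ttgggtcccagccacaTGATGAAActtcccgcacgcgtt
Chac1 (chr2:119351033-119351072, minus strand): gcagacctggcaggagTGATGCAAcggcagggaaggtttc
Fgf21 (chr7:45615606-45615645, plus strand): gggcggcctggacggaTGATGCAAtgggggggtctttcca
Nupr1 (chr7:126625557-126625596, plus strand): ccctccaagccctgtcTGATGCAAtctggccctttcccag
Pycr1 (chr11:120643828-120643867, minus strand): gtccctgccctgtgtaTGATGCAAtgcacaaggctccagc
Slc7a11 (chr3:50443656-50443695, minus strand): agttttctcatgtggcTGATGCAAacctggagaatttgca
Vldlr (chr19:27216804-27216843, minus strand): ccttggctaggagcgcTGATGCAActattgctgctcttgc
The far end of the element lies between 23 and 200 bases before the gene start in these 7 promoters, and the shared letters do not show that a factor was bound. Because the list was drawn up as ATF4 targets, a share above that of all genes adds no support to their rise.

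The stress programs of protein folding gave few calls. None of 21 endoplasmic reticulum chaperones was called by edgeR, DESeq2 or limma-voom (median -0.13), and 2 had an unadjusted edgeR p under 0.05. Hspa5, the chaperone BiP that marks the unfolded protein response, was at 792, 1111 and 1526 CPM in hepatocytes and 1029 and 1323 CPM in spheroids (log2 fold change 0.04 ± 0.30, adjusted p = 0.933). Of 24 heat shock genes, 1 rose (4.17%) and 2 fell (8.33%), with a median of 0.03, beside 8.13% and 9.11% of all genes tested. The fits with a sample left out gave 0 to 2 higher and 0 lower. Hspa1a, the inducible Hsp70, was at 3.85, 4.08 and 3.26 CPM in hepatocytes and 1.22 and 0.601 CPM in spheroids, with 19% of its exon bases shared with Gm20481 (log2 fold change -1.96 ± 0.54, adjusted p = 0.034), and did not pass without hepatocyte sample 3 (adjusted p = 0.0671), spheroid sample 1 (adjusted p = 0.0868) or spheroid sample 2 (adjusted p = 0.158). Of 19 hypoxia targets, 1 rose and 3 fell (median -0.03).

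Most targets of p53 rose. Of 19 tested, 11 rose and 1 fell (median 1.36), against 6 higher without spheroid sample 1. Cdkn1a, the cell cycle inhibitor p21 that glucocorticoids can also raise, was at 8.6, 11.2 and 27.3 CPM in the hepatocyte samples and 341 and 330.1 CPM in the spheroid samples (log2 fold change 4.45 ± 0.41, adjusted p = 0.000525). Eda2r, a death-domain receptor, was at 2.96, 1.7 and 2.85 CPM in hepatocytes and 43.8 and 14.1 CPM in spheroids (log2 fold change 3.52 ± 0.54, adjusted p = 0.00374), and Ccng1, cyclin G, at 102, 90.1 and 71.8 CPM in hepatocytes and 248 and 287 CPM in spheroids (log2 fold change 1.6 ± 0.19, adjusted p = 0.00149). Mdm2, the ligase that degrades p53, was at 47.4, 61.2 and 51.4 CPM in hepatocytes and 117 and 104 CPM in spheroids (log2 fold change 1.05 ± 0.17, adjusted p = 0.0043), close to the fold limit, and did not pass without hepatocyte sample 1 (log2 fold change 1.00) or spheroid sample 1 (log2 fold change 0.96). All 4 genes had both spheroid samples above the 3 hepatocyte samples, which adds no support to their calls. Eda2r had enough counts to be tested only through the spheroids.

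Oxidative stress genes under NRF2 were mixed. Of 23 tested, 5 rose and 4 fell (median -0.23), against 1 lower without hepatocyte sample 3 or spheroid sample 1 and 0 lower with library size alone. Nfe2l2, the gene of NRF2, was at 155, 125 and 101 CPM in hepatocytes and 294 and 343 CPM in spheroids (log2 fold change 1.32 ± 0.21, adjusted p = 0.00431). Hmox1, haem oxygenase, was at 27.9, 19.7 and 22.02 CPM in hepatocytes and 70.6 and 78.7 CPM in spheroids (log2 fold change 1.68 ± 0.20, adjusted p = 0.00138), whereas Gclm, the regulatory subunit of glutathione synthesis, fell and was at 144, 139.7 and 157 CPM in hepatocytes and 73.3 and 67.6 CPM in spheroids (log2 fold change -1.06 ± 0.15, adjusted p = 0.00306), though not without hepatocyte sample 3 (log2 fold change -0.98). Slc7a11, the cystine carrier that ATF4 also targets, was at 4.45, 3.4 and 3.26 CPM in hepatocytes and 45.03 and 14.1 CPM in spheroids (log2 fold change 2.98 ± 0.51, adjusted p = 0.0058).

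Metallothionein and glucocorticoid response genes, taken as 1 list, rose in part. Of 20 tested, 8 rose and 1 fell (median 0.42). Those that rose include Sult1e1, which had enough counts to be tested only through the spheroids. Fkbp5, a chaperone of the glucocorticoid receptor, was at 30.5, 37.7 and 16.3 CPM in the hepatocyte samples and 137 and 165 CPM in the spheroid samples (log2 fold change 2.41 ± 0.29, adjusted p = 0.00155), and Sgk1, a kinase induced by steroids, at 57.2, 42.1 and 76.6 CPM in hepatocytes and 395 and 207 CPM in spheroids (log2 fold change 2.36 ± 0.32, adjusted p = 0.00234). For each gene, both spheroid samples lay above every hepatocyte sample, which adds no support to its call. The culture media held dexamethasone, a synthetic glucocorticoid, which cannot be told apart from the other features of culture in this design.

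Inflammatory and acute phase genes went in both directions. Of 26 NF-kB and inflammatory genes tested, 8 rose and 4 fell (median 0.86), against 5 higher without spheroid sample 1. Ccl2, a monocyte chemokine, was at 2.37, 2.04 and 0.815 CPM in hepatocytes and 90.3 and 15.6 CPM in spheroids (log2 fold change 4.85 ± 0.78, adjusted p = 0.00448, and 0.0642 in limma-voom), and Icam1, a leukocyte adhesion receptor, at 11.9, 13.3 and 14.3 CPM in hepatocytes and 79.4 and 32.4 CPM in spheroids (log2 fold change 2.10 ± 0.37, adjusted p = 0.00617). In both, spheroid sample 1 was the higher of the pair. Cxcl1, a neutrophil chemokine, fell and was at 122, 238 and 306 CPM in hepatocytes and 55.3 and 32.4 CPM in spheroids (log2 fold change -2.33 ± 0.42, adjusted p = 0.00679). Of 27 acute phase proteins, 2 rose and 5 fell, against 9 lower without spheroid sample 2. Lcn2, an iron-sequestering acute phase protein, was at 8.6, 41.1 and 13.1 CPM in hepatocytes and 411 and 373 CPM in spheroids (log2 fold change 4.23 ± 0.54, adjusted p = 0.00185). Other acute phase genes, Orm1, at 414, 372 and 491 CPM in hepatocytes and 30.2 and 57.1 CPM in spheroids (log2 fold change -3.29 ± 0.32, adjusted p = 0.000704), and Saa1, at 56.9, 112 and 85.2 CPM in hepatocytes and 16.3 and 12.6 CPM in spheroids (log2 fold change -2.54 ± 0.32, adjusted p = 0.00178), fell.

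Most interferon-induced genes fell. Of 31 tested, 0 rose and 18 fell (median -1.38), against 9 lower without hepatocyte sample 3 or without spheroid sample 1. Irf7, the factor that amplifies the response, was at 54.3, 67.3 and 67.7 CPM in hepatocytes and 12.7 and 12.3 CPM in spheroids (log2 fold change -2.33 ± 0.20, adjusted p = 0.000451). Rtp4 was at 32.02, 37.05 and 43.2 CPM in hepatocytes and 7.79 and 5.71 CPM in spheroids (log2 fold change -2.45 ± 0.28, adjusted p = 0.00122), and Bst2, the membrane tether of budding virus, at 236, 237 and 276 CPM in hepatocytes and 110.0 and 85.3 CPM in spheroids (log2 fold change -1.35 ± 0.19, adjusted p = 0.00269). The groups did not overlap in any of these genes, which adds no support to their calls.

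**Figure D3:**
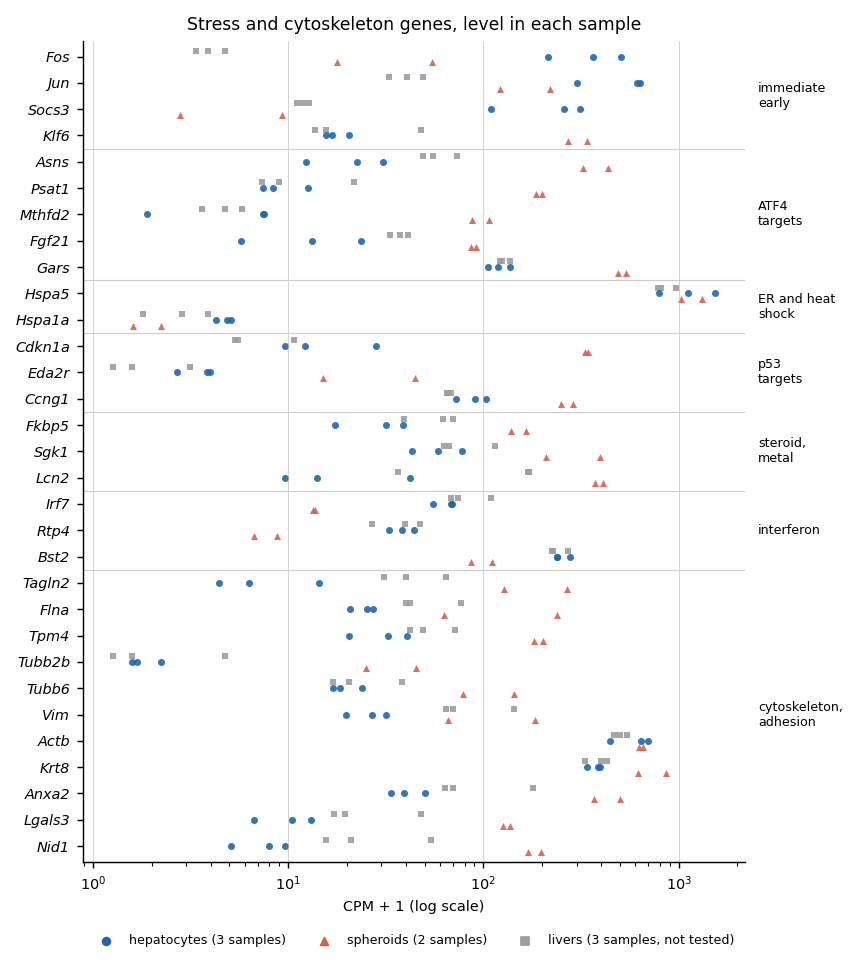
CPM + 1 on a log scale (x axis) of named stress, cytoskeleton and adhesion genes (y axis) in each of 3 hepatocyte samples (blue circles), 2 spheroid samples (orange triangles) and 3 livers shown side by side (grey squares). Fos, Jun and Socs3 lie to the left in spheroids, ATF4 and p53 targets to the right, and Hspa5 and Actb overlap between the groups.

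Several actin-binding genes rose, and actin itself did not pass. Of 57 actin cytoskeleton genes tested, 18 rose and 1 fell, with a median of 0.71. Tagln2, a transgelin that bundles filaments, was at 13.3, 3.4 and 5.3 CPM in the hepatocyte samples and 267 and 127 CPM in the spheroid samples (log2 fold change 4.70 ± 0.50, adjusted p = 0.000974). Tpm4, a tropomyosin, was at 39.7, 19.4 and 31.4 CPM in hepatocytes and 201 and 179.9 CPM in spheroids (log2 fold change 2.65 ± 0.27, adjusted p = 0.000778), and Flna, the filament crosslinker filamin A, at 26.1, 19.7 and 24.5 CPM in hepatocytes and 238 and 62.2 CPM in spheroids (log2 fold change 2.68 ± 0.48, adjusted p = 0.00706). Spheroid sample 1 was the higher of the pair in all 3. Myh9, the heavy chain of non-muscle myosin, was at 110.0, 86.7 and 95.4 CPM in hepatocytes and 288 and 198 CPM in spheroids (log2 fold change 1.32 ± 0.21, adjusted p = 0.00392). Actb, cytoplasmic beta-actin, was at 446, 639 and 699.6 CPM in hepatocytes and 658 and 625 CPM in spheroids (log2 fold change 0.11 ± 0.24, adjusted p = 0.766), so that its groups overlapped.

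Some tubulin and filament genes rose as well. Of 22 tubulin and microtubule genes, 5 rose and 0 fell (median 0.51), against 8 higher without spheroid sample 2 or with library size alone. Tubb2b, a beta-tubulin best known from developing brain, was at 0.593, 0.68 and 1.22 CPM in hepatocytes and 44.1 and 24.03 CPM in spheroids (44-fold, 95% counting interval 21 to 110.0, adjusted p = 0.000405), and Tubb6 at 17.5, 15.97 and 22.8 CPM in hepatocytes and 143 and 77.8 CPM in spheroids (log2 fold change 2.56 ± 0.28, adjusted p = 0.00113). Of 10 intermediate filament genes tested, 2 rose and 1 fell (median 0.88). Vim, the mesenchymal filament vimentin, was at 30.5, 25.8 and 18.8 CPM in hepatocytes and 182 and 64.9 CPM in spheroids (log2 fold change 2.29 ± 0.41, adjusted p = 0.00657). Krt8, the keratin of hepatocytes, was at 338, 386 and 396 CPM in hepatocytes and 863 and 615 CPM in spheroids (log2 fold change 0.98 ± 0.21, adjusted p = 0.0145), just inside the fold limit and so not called, with groups that did not overlap. Its partner Krt18 was at 354, 445 and 512 CPM in hepatocytes and 775 and 619 CPM in spheroids (log2 fold change 0.67 ± 0.23, adjusted p = 0.0638).

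Several adhesion receptors and their membrane partners rose. Of 32 tested, 13 rose and 0 fell (median 0.94). Anxa2, an annexin that links membrane and actin, was at 48.9, 38.1 and 32.6 CPM in the hepatocyte samples and 500.5 and 368 CPM in the spheroid samples (log2 fold change 3.44 ± 0.23, adjusted p = 0.000153). Lgals3, galectin 3, was at 12.2, 9.52 and 5.71 CPM in hepatocytes and 136 and 125 CPM in spheroids (log2 fold change 3.81 ± 0.25, adjusted p = 0.000145). Cd44, the hyaluronan receptor, was at 5.93, 3.74 and 5.71 CPM in hepatocytes and 78.9 and 8.41 CPM in spheroids (log2 fold change 3.09 ± 0.80, adjusted p = 0.0263) and did not pass without hepatocyte sample 1 (adjusted p = 0.0542), hepatocyte sample 2 (adjusted p = 0.066), hepatocyte sample 3 (adjusted p = 0.0815) or spheroid sample 1 (adjusted p = 0.332). Of 32 junction genes, 4 rose (12.5%) and 2 fell (6.25%), beside 8.13% and 9.11% of all genes tested. Only 2 were higher without hepatocyte sample 2 or spheroid sample 1. Gjb1, the connexin of hepatocyte gap junctions, was at 601, 801 and 782 CPM in hepatocytes and 269 and 336 CPM in spheroids (log2 fold change -1.27 ± 0.23, adjusted p = 0.0072), and Cldn2, a channel-forming claudin, at 219.7, 386 and 334 CPM in hepatocytes and 64.02 and 87.1 CPM in spheroids (log2 fold change -2.05 ± 0.29, adjusted p = 0.00263). Cdh1, E-cadherin, ranged within both groups, at 46.9, 1.36 and 57.9 CPM in hepatocytes and 55.3 and 5.41 CPM in spheroids (log2 fold change -0.19 ± 1.11, adjusted p = 0.913). Its low samples were hepatocyte sample 2 and spheroid sample 2.

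Some matrix genes rose. Of 41 tested, 10 rose and 4 fell (median 0.76), against 2 lower without spheroid sample 1. Nid1, the basement membrane linker nidogen, was at 8.6, 4.08 and 6.93 CPM in the hepatocyte samples and 195 and 167 CPM in the spheroid samples (log2 fold change 4.78 ± 0.26, adjusted p = 6.49e-05), and Col4a1, of basement membrane collagen, at 9.49, 10.9 and 15.5 CPM in hepatocytes and 64.8 and 51.1 CPM in spheroids (log2 fold change 2.29 ± 0.26, adjusted p = 0.00121). Mmp12, the macrophage elastase, was at 2.96, 2.04 and 4.48 CPM in hepatocytes and 95.4 and 179.9 CPM in spheroids (log2 fold change 5.45 ± 0.37, adjusted p = 0.000153). Col1a1, of fibrillar collagen, was at 5.04, 6.8 and 6.93 CPM in hepatocytes and 2.92 and 4.21 CPM in spheroids (log2 fold change -0.81 ± 0.42, adjusted p = 0.19). Targets of YAP and SRF, which read cell tension, gave 3 higher and 1 lower of 18, against 1 higher without spheroid sample 1 and 7 without spheroid sample 2. Ccn2, connective tissue growth factor, was at 4.45, 4.76 and 5.71 CPM in hepatocytes and 114 and 39.95 CPM in spheroids (log2 fold change 3.96 ± 0.46, adjusted p = 0.00132), with 23.2% of its exon bases shared with Gm15270. Ankrd1 was at 0, 0 and 0 CPM in hepatocytes and 7.06 and 3.9 CPM in spheroids, at least 5.25-fold higher in spheroids against the floor. The sister gene of Ccn2, Ccn1, was at 53.4, 257 and 101 CPM in hepatocytes and 119.8 and 77.8 CPM in spheroids (log2 fold change -0.47 ± 0.57, adjusted p = 0.577). TGF-beta genes gave 3 higher and 4 lower of 19, against 1 higher without spheroid sample 1 and 2 lower without hepatocyte sample 3 or spheroid sample 2.

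Several hepatocyte transcription factors fell, and Hnf4a was not called. Of 30 transcription factors tested, 0 rose and 11 fell (median -0.72), against 7 lower without spheroid sample 1. Hnf4a, which holds the hepatocyte program together, was at 455, 481 and 349 CPM in the hepatocyte samples and 355 and 366 CPM in the spheroid samples (log2 fold change -0.25 ± 0.21, adjusted p = 0.406). Its groups overlapped. Cebpa, which drives metabolic genes in the mature cell, was at 223, 153 and 146 CPM in hepatocytes and 30.2 and 23.4 CPM in spheroids (log2 fold change -2.70 ± 0.26, adjusted p = 0.000668). Every spheroid sample lay below every hepatocyte sample, which adds no support to the call of Cebpa. Onecut1, the factor HNF6, was at 77.4, 79.9 and 64.01 CPM in hepatocytes and 12.4 and 4.81 CPM in spheroids (log2 fold change -3.06 ± 0.35, adjusted p = 0.00128), with 52.8% of its exon bases shared with Gm20649.

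Albumin was not called, while many complement genes fell. Alb was at 3288, 3465 and 4369 CPM in the hepatocyte samples and 2775 and 3394 CPM in the spheroid samples (log2 fold change -0.27 ± 0.27, adjusted p = 0.496), and the groups overlapped. Because duplicate reads were removed by molecular identifier and position before deposit, the most abundant genes may be compressed and a difference in Alb understated. Of 31 plasma proteins tested, 1 rose and 9 fell (median -0.49). Serpina6, which carries corticosteroids in blood, was at 669.8, 535 and 357 CPM in hepatocytes and 18.3 and 21.6 CPM in spheroids (log2 fold change -4.71 ± 0.34, adjusted p = 0.000207). Of 50 complement and coagulation genes, 2 rose and 18 fell (median -0.85), and both that rose, C1qb and C1qc, are made by macrophages. None of the list rose without hepatocyte sample 2, spheroid sample 1 or spheroid sample 2. C8a and C9 build the membrane attack complex. C8a was at 925, 1037 and 1449 CPM in hepatocytes and 38.95 and 48.96 CPM in spheroids (log2 fold change -4.69 ± 0.32, adjusted p = 0.000153), and C9 at 623, 595 and 822 CPM in hepatocytes and 46.7 and 38.5 CPM in spheroids (log2 fold change -3.99 ± 0.26, adjusted p = 0.000139). Of 23 lipoprotein genes, 6 fell, and 10 without spheroid sample 2. Lrp1, a receptor for lipoprotein remnants, was at 467, 607 and 439 CPM in hepatocytes and 114 and 64.9 CPM in spheroids (log2 fold change -2.49 ± 0.30, adjusted p = 0.00155).

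Many genes of ammonia and amino acid breakdown fell, and the entry enzyme of the urea cycle was not called. Of 16 urea cycle and ammonia genes, 0 rose and 10 fell (median -1.60), against 5 lower without spheroid sample 1. Cps1, which fixes ammonia into carbamoyl phosphate, was at 3089, 2425 and 3819 CPM in the hepatocyte samples and 1602 and 2522 CPM in the spheroid samples (log2 fold change -0.59 ± 0.32, adjusted p = 0.201). Otc, the next enzyme, was at 814, 766 and 989 CPM in hepatocytes and 122 and 109 CPM in spheroids (log2 fold change -2.89 ± 0.23, adjusted p = 0.000316), and Oat, which feeds ornithine into glutamate, at 508, 1428 and 729 CPM in hepatocytes and 27.99 and 47.5 CPM in spheroids (log2 fold change -4.56 ± 0.54, adjusted p = 0.00142). The groups overlapped for Cps1 and lay apart for Otc and Oat, which adds no support to the calls of Otc and Oat. Of 51 genes of amino acid and one-carbon catabolism, 1 rose and 27 fell (median -1.14). Agxt, which detoxifies glyoxylate, was at 389.6, 459 and 656 CPM in hepatocytes and 4.38 and 9.61 CPM in spheroids (log2 fold change -6.18 ± 0.44, adjusted p = 0.000176).

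**Figure D4:**
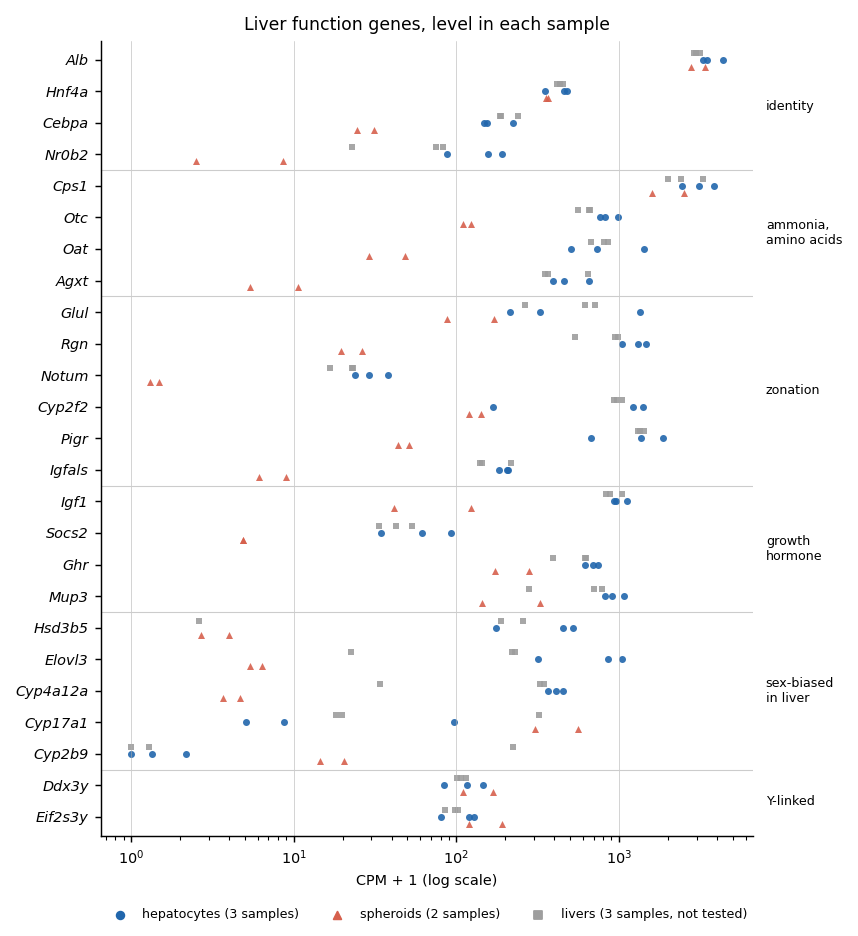
CPM + 1 on a log scale (x axis) of named liver function genes (y axis) in each of 3 hepatocyte samples (blue circles), 2 spheroid samples (orange triangles) and 3 livers shown side by side (grey squares). Alb, Hnf4a and Cps1 overlap between hepatocytes and spheroids, most genes of zonation, growth hormone signalling and male bias lie to the left in spheroids, and the Y-linked genes overlap.

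Bile acid, sugar and fat metabolism fell in part. Of 16 bile acid synthesis genes, 1 rose and 6 fell (median -1.47). Cyp7a1, the rate-limiting enzyme, was at 453, 245 and 119.9 CPM in hepatocytes and 30.2 and 147 CPM in spheroids (log2 fold change -1.63 ± 0.71, adjusted p = 0.131), with wide spread in both groups. Cyp7b1, of the acidic branch, was at 251, 603 and 593 CPM in hepatocytes and 52.1 and 101 CPM in spheroids (log2 fold change -2.66 ± 0.47, adjusted p = 0.00621), while Cyp39a1, which hydroxylates an oxysterol, rose and was at 109, 15.3 and 39.95 CPM in hepatocytes and 596 and 774 CPM in spheroids (log2 fold change 3.63 ± 0.65, adjusted p = 0.00668). Of 24 gluconeogenesis and glycogen genes, 1 rose and 5 fell. Pck1, which commits carbon to glucose, was at 1426, 738 and 1530 CPM in hepatocytes and 100.5 and 326 CPM in spheroids (log2 fold change -2.53 ± 0.55, adjusted p = 0.0141), and G6pc, which releases glucose, at 639.5, 522 and 1316 CPM in hepatocytes and 287 and 596 CPM in spheroids (log2 fold change -0.90 ± 0.46, adjusted p = 0.188). Of 20 glycolysis genes, 2 rose and 1 fell, and Pkm, the pyruvate kinase of most tissues other than liver, was at 33.5, 29.2 and 39.95 CPM in hepatocytes and 132 and 82.3 CPM in spheroids (log2 fold change 1.65 ± 0.24, adjusted p = 0.00277).

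Of lipogenesis and fat oxidation genes, more fell than rose. Of 26 lipogenesis genes, 1 rose and 7 fell (median -0.82), against 4, 3 and 4 lower without hepatocyte sample 1, hepatocyte sample 3 and spheroid sample 1. Acacb, which makes the malonyl-CoA that holds back fat oxidation, was at 328, 116 and 122 CPM in hepatocytes and 12.9 and 13.5 CPM in spheroids (log2 fold change -3.84 ± 0.54, adjusted p = 0.00254). Scd2, the desaturase of fetal liver and brain, rose and was at 10.7, 6.8 and 13.9 CPM in hepatocytes and 84.2 and 48.7 CPM in spheroids (log2 fold change 2.68 ± 0.34, adjusted p = 0.00176). Of 47 targets of PPARalpha and oxidation genes, 5 rose and 11 fell (median -0.62). These counts turned on single samples, with 26 lower without spheroid sample 2, and 2, 3 and 2 higher without hepatocyte sample 3, spheroid sample 1 and spheroid sample 2. Of 27 cholesterol genes, 1 rose and 2 fell (median 0.06). The single tested fructose gene that fell, of 6, was Slc2a5, the fructose carrier, at 48.03, 10.9 and 26.1 CPM in hepatocytes and 1.22 and 2.7 CPM in spheroids (log2 fold change -3.88 ± 0.74, adjusted p = 0.00852), which did not pass without spheroid sample 1 (adjusted p = 0.072).

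Many genes of both ends of the lobule fell. In liver, oxygen, hormones and Wnt signals set a gradient from the portal vein, where ureagenesis and gluconeogenesis prevail, to the central vein, where drug oxidation and glutamine synthesis do. Of 26 pericentral genes tested, 0 rose and 18 fell (median -2.60), against 16 lower without hepatocyte sample 2 and 9 without spheroid sample 1. Notum and Axin2, near 0 in spheroids, had enough counts to be tested only through the hepatocytes, so this count is in part fixed by the filter. Of 23 periportal genes, 0 rose and 11 fell (median -1.45), against 12 without hepatocyte sample 2, 7 without hepatocyte sample 3, 6 without spheroid sample 1 and 7 without spheroid sample 2. Rgn, a calcium-binding pericentral protein, was at 1048, 1460 and 1307 CPM in the hepatocyte samples and 18.5 and 25.2 CPM in the spheroid samples (log2 fold change -5.86 ± 0.32, adjusted p = 6.49e-05). Notum, a Wnt target that inactivates Wnt ligands, was at 22.8, 37.05 and 28.1 CPM in hepatocytes and 0.487 and 0.3 CPM in spheroids (72.1-fold, 95% counting interval 24.4 to 352, adjusted p = 0.000316), with 38.1% of its exon bases shared with Notumos. Axin2, the general read-out of Wnt signalling, was at 6.82, 10.5 and 6.93 CPM in hepatocytes and 1.22 and 1.5 CPM in spheroids (log2 fold change -2.55 ± 0.48, adjusted p = 0.00817), and did not pass without spheroid sample 1 (adjusted p = 0.0537). Glul, glutamine synthetase of the innermost pericentral cells, was at 324, 1346 and 212 CPM in hepatocytes and 87.1 and 169 CPM in spheroids (log2 fold change -2.29 ± 0.79, adjusted p = 0.0672) and passed without hepatocyte sample 3 (adjusted p = 0.045) and in a fit over all 5 groups (adjusted p = 0.0105), and hepatocyte sample 2 was several times above the other hepatocytes. Pigr, the IgA receptor of periportal cells, was at 1363, 677 and 1871 CPM in hepatocytes and 49.9 and 42.96 CPM in spheroids (log2 fold change -4.81 ± 0.49, adjusted p = 0.000814). Cyp2f2, a P450 of periportal cells, was at 1216, 166 and 1400 CPM in hepatocytes and 119.5 and 141 CPM in spheroids (log2 fold change -2.83 ± 0.80, adjusted p = 0.0355), with hepatocyte sample 2 near the spheroids, 13.5% of its exon bases shared with Gm15883, and no call without hepatocyte sample 1 (adjusted p = 0.0626), hepatocyte sample 3 (adjusted p = 0.0971), spheroid sample 1 (adjusted p = 0.164) or spheroid sample 2 (adjusted p = 0.14).

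Most growth hormone targets fell. Growth hormone acts on liver through STAT5b, and its pulses in male mice keep male liver genes on and female ones off. Of 23 genes of the axis tested, 0 rose and 15 fell (median -2.44). Igf1, its endocrine effector, was at 962, 929 and 1117 CPM in the hepatocyte samples and 40.6 and 122 CPM in the spheroid samples (log2 fold change -3.62 ± 0.47, adjusted p = 0.00197), and Igfals, which carries IGF1 in blood, at 203, 182 and 208 CPM in hepatocytes and 8.03 and 5.11 CPM in spheroids (log2 fold change -4.88 ± 0.24, adjusted p = 4.91e-05). Socs2, its feedback inhibitor, was at 33.2, 92.1 and 60.7 CPM in hepatocytes and 3.9 and 3.9 CPM in spheroids (log2 fold change -3.98 ± 0.49, adjusted p = 0.00171). Ghr, the receptor itself, was at 618, 744 and 687 CPM in hepatocytes and 173 and 280.3 CPM in spheroids (log2 fold change -1.59 ± 0.26, adjusted p = 0.00471), nearer to 0 than its targets named here, a difference that was not tested. Igfbp2, another protein that binds IGF1, was at 168, 101 and 205 CPM in hepatocytes and 1.7 and 1.2 CPM in spheroids (log2 fold change -6.71 ± 0.46, adjusted p = 0.000153).

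Most male-biased liver genes fell and some female-biased ones rose, in samples that all held Y-linked transcripts. Of 15 male-biased genes tested, 0 rose and 12 fell. Of 8 female-biased genes tested out of 18 listed, 5 rose and 1 fell. Sult1e1, Sult2a1, Cyp2a4 and Cyp2b9, near 0 in hepatocytes, passed the filter on low counts through the spheroids alone, and Hsd3b5 and the Cyp4a12 genes through the hepatocytes alone, so the direction of these counts is in part fixed by the filter. Hsd3b5, a steroid reductase of male liver, was at 175, 523 and 449 CPM in the hepatocyte samples and 1.7 and 3.004 CPM in the spheroid samples (log2 fold change -7.35 ± 0.65, adjusted p = 0.000456). Elovl3, a fatty acid elongase of male liver, was at 317, 850.4 and 1046 CPM in hepatocytes and 4.38 and 5.41 CPM in spheroids (log2 fold change -7.23 ± 0.65, adjusted p = 0.000494), and Cyp4a12a at 364, 455 and 409 CPM in hepatocytes and 3.65 and 2.7 CPM in spheroids (log2 fold change -6.98 ± 0.28, adjusted p = 3.78e-05). Cyp17a1, a steroid hydroxylase higher in female liver, was at 95.5, 4.08 and 7.75 CPM in hepatocytes and 306 and 561 CPM in spheroids (log2 fold change 3.56 ± 1.02, adjusted p = 0.038) and did not pass without hepatocyte sample 3 (adjusted p = 0.103), spheroid sample 1 (adjusted p = 0.0809) or spheroid sample 2 (adjusted p = 0.139). The Y-linked Ddx3y was at 115, 144 and 82.8 CPM in hepatocytes and 109 and 166 CPM in spheroids (log2 fold change 0.27 ± 0.27, adjusted p = 0.502), and Xist did not exceed 1.22 CPM in any sample. Every one of the 5 samples thus held Y-linked transcripts, and none of the 4 sex-linked genes tested was called.

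Haem and iron genes held some large losses. Alas2, the erythroid form of the enzyme that starts haem synthesis, was at 289, 322 and 332 CPM in the hepatocyte samples and 1.7 and 2.7 CPM in the spheroid samples (log2 fold change -7.16 ± 0.28, adjusted p = 3.78e-05), beside 139, 217 and 241 CPM in livers, with 15.5% of its exon bases shared with Apex2. The globin Hbb-bs was at 12.4, 6.46 and 6.93 CPM in hepatocytes and 2.92 and 2.1 CPM in spheroids (log2 fold change -1.76 ± 0.48, adjusted p = 0.0325), beside 82.4, 103 and 71.5 CPM in livers, and did not pass without hepatocyte sample 1 (adjusted p = 0.0829), hepatocyte sample 3 (adjusted p = 0.0647), spheroid sample 1 (adjusted p = 0.0936) or spheroid sample 2 (adjusted p = 0.132). Isolated hepatocytes held more Alas2 and far less globin than livers. Of 21 iron genes, 1 rose and 6 fell. Hamp, the iron hormone hepcidin, was at 178, 137 and 139 CPM in hepatocytes and 6.82 and 9.61 CPM in spheroids (log2 fold change -4.21 ± 0.25, adjusted p = 8.65e-05).

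Most fetal genes were too low to test. Only 7 of 22 fetal and progenitor genes had enough counts, of which 5 rose and 0 fell, against 2 higher without spheroid sample 1. Cd24a and Gpc3, near 0 in hepatocytes, passed the filter through the spheroids alone, so this count is in part fixed by the filter. The summed list was at 73.2, 90.4 and 75.8 CPM in hepatocytes and 500 and 175 CPM in spheroids, beside 528, 317 and 257 CPM in livers. Afp, alpha-fetoprotein, was at 5.04, 13.9 and 2.85 CPM in hepatocytes and 26.1 and 30.04 CPM in spheroids (log2 fold change 1.93 ± 0.52, adjusted p = 0.0307) and did not pass without hepatocyte sample 1 (adjusted p = 0.0688), hepatocyte sample 3 (adjusted p = 0.0706), spheroid sample 1 (adjusted p = 0.0938) or spheroid sample 2 (adjusted p = 0.121). Of 32 cell cycle genes tested, 2 rose and 1 fell, and the proliferation marker Mki67 was too low to test. Tk1, thymidine kinase, fell and was at 97.8, 91.1 and 96.2 CPM in hepatocytes and 17.8 and 15.6 CPM in spheroids (log2 fold change -2.50 ± 0.17, adjusted p = 0.000153). Of 19 clock genes, 0 rose and 2 fell (10.5%), near the 9.11% of all genes tested that fell. Nr1d1, a clock repressor, was at 113, 218 and 123 CPM in hepatocytes and 22.9 and 23.1 CPM in spheroids (log2 fold change -2.71 ± 0.33, adjusted p = 0.00149).

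Housekeeping machinery gave few calls. None of 81 ribosomal protein genes was called by edgeR, DESeq2 or limma-voom (median -0.08), nor any of 11 genes of the mitochondrial genome (median -0.53), with 4 and 2 at an unadjusted edgeR p under 0.05. Of 53 nuclear genes of the respiratory chain, 0 rose and 2 fell, with a median of -0.51. In edgeR 23 of them had an adjusted p and 39 an unadjusted p under 0.05, so that the fold limit kept most from a call. Of 37 proteasome genes, 1 rose and 2 fell, and both that fell were the immunoproteasome subunits Psmb8 and Psmb9. Lysosome genes gave 2 higher of 32. Translation factors gave 4 higher of 25, against 2 without hepatocyte sample 3 or spheroid sample 2 and 7 with library size alone.

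Levels of markers of other liver cells differed as well. Of 12 macrophage and monocyte markers tested out of 15, 6 rose and 0 fell (median 1.01), against 3 higher without spheroid sample 1. They summed to 242, 125 and 204 CPM in hepatocytes and 393 and 366 CPM in spheroids. Cd68, a lysosomal protein of macrophages, was at 9.49, 8.16 and 10.6 CPM in hepatocytes and 52.3 and 42.05 CPM in spheroids (log2 fold change 2.33 ± 0.23, adjusted p = 0.000814), and Cd5l, of Kupffer cells, at 67.9, 37.4 and 49.7 CPM in hepatocytes and 165 and 164 CPM in spheroids (log2 fold change 1.67 ± 0.23, adjusted p = 0.00263). Clec4f, the defining lectin of Kupffer cells, was at 66.1, 40.1 and 50.1 CPM in hepatocytes and 61.1 and 102 CPM in spheroids (log2 fold change 0.64 ± 0.28, adjusted p = 0.126). Of 7 Kupffer cell markers, 2 rose and 0 fell, and their sum overlapped between the groups, at 480.3, 941 and 845 CPM in hepatocytes and 457 and 678 CPM in spheroids. The macrophage and monocyte levels moved in the same direction as Mmp12, Lgals3, Ccl2, C1qb and C1qc above, and their part in those results was not tested.

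Several endothelial and blood cell markers fell. Of 9 sinusoidal endothelial markers, 1 rose and 4 fell, against 2 lower without hepatocyte sample 3 or either spheroid sample. Dnase1l3, a nuclease secreted by these cells, was at 138, 48.6 and 139.8 CPM in hepatocytes and 6.33 and 2.1 CPM in spheroids (log2 fold change -4.63 ± 0.62, adjusted p = 0.00212), and Stab2, a scavenger receptor, at 34.1, 41.5 and 38.3 CPM in hepatocytes and 13.6 and 11.7 CPM in spheroids (log2 fold change -1.57 ± 0.23, adjusted p = 0.00281). Wnt2, the Wnt ligand that these cells send to pericentral hepatocytes, was at 6.23, 1.36 and 4.89 CPM in hepatocytes and 0 and 0 CPM in spheroids, at least 5.1-fold lower in spheroids against the floor, and did not pass without spheroid sample 1 (adjusted p = 0.0767) or spheroid sample 2 (adjusted p = 0.0595). The fall of sinusoidal markers ran beside that of the Wnt targets of the pericentral list, and its part in that fall was not tested. Lymphocyte markers summed to 22.5, 46.2 and 45.2 CPM in hepatocytes and 7.06 and 6.31 CPM in spheroids. Interferon-induced genes fell beside them, and the part of lymphocytes in that fall was not tested. Of the erythroid markers, 2 of 3 tested fell, and in hepatocytes most of their sum was Alas2.

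Summed stellate cell and cholangiocyte markers were higher in both spheroid samples than in every hepatocyte sample. Stellate cell markers summed to 246, 151 and 169.6 CPM in hepatocytes and 272 and 318 CPM in spheroids, and none of 8 tested was called by edgeR or DESeq2, with 1 called higher by limma-voom and 2 at an unadjusted edgeR p under 0.05. Of 4 portal fibroblast markers, 1 rose and 1 fell, and of 9 vascular markers, 2 fell. In both lists 0 fell without hepatocyte sample 1, hepatocyte sample 3 or either spheroid sample. Cholangiocyte markers summed to 102, 80.9 and 100.3 CPM in hepatocytes and 306 and 126 CPM in spheroids, including Spp1, which injured hepatocytes also make, whereas Krt19 did not exceed 1.95 CPM and Epcam 0.601 CPM in these 5 samples. Spp1 was at 31.4, 22.8 and 33.02 CPM in hepatocytes and 185 and 56.8 CPM in spheroids (log2 fold change 2.06 ± 0.44, adjusted p = 0.013), with 18.8% of its exon bases shared with Gm42793, and did not pass without spheroid sample 1 (adjusted p = 0.0563). No neutrophil marker had enough counts to test, with sums of at most 3.1 CPM.

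**Figure D5:**
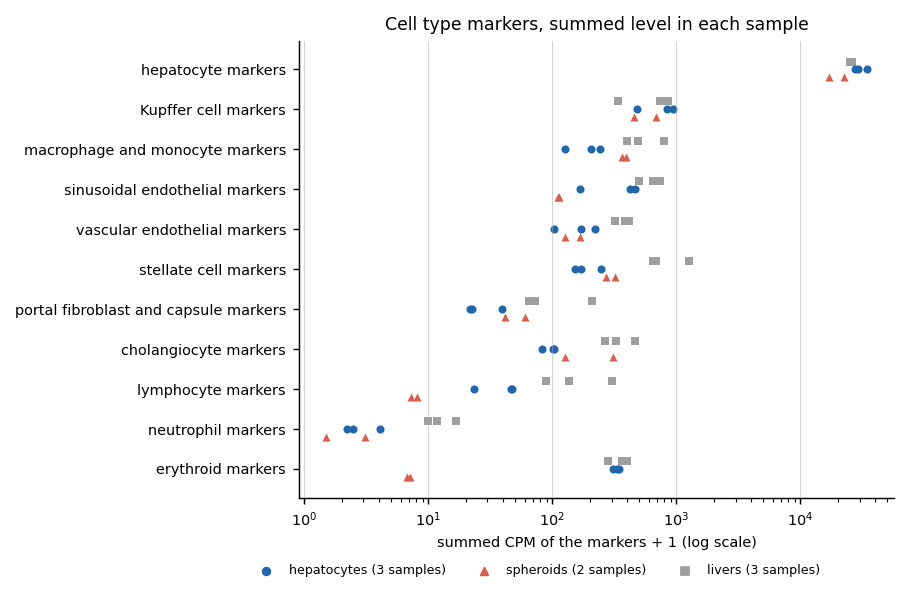
Summed CPM + 1 of the markers of each cell type on a log scale (x axis) in each of 3 hepatocyte samples (blue circles), 2 spheroid samples (orange triangles) and 3 livers (grey squares). Hepatocyte markers exceed those of every other cell type by more than 10-fold in all samples, macrophage markers lie to the right and sinusoidal endothelial and lymphocyte markers to the left in both spheroid samples, as do erythroid markers, whose sum in hepatocytes is mostly Alas2.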

How the data were processed

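The authors prepared bulk RNA-seq libraries with the Smart-seq3 chemistry, aligned the reads with TopHat2 to mm10, removed duplicates by molecular identifier and position and counted reads on exons with featureCounts 1.4.6-p5. The deposited values used here are raw counts per gene. By the featureCounts options in the file headers, strand was not used, a read over several genes counted for each, and reads mapping to several places were not counted. Because duplicates were removed by identifier and position, fold changes of very abundant genes may be compressed.

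Counts of the 3 technical libraries of a sample were summed. Genes were filtered with filterByExpr (12247 of 46517 remained), scaled by TMM and tested with the quasi-likelihood method of edgeR 4.0.16 in R 4.3.3 on the 2 spheroid and 3 hepatocyte samples, with Benjamini-Hochberg adjustment over all genes tested. An exact permutation test of 2 samples against 3 cannot go under p = 0.1, so summed levels are given without a test. For the same reason, groups that do not overlap add no support to the call of a gene. Where a group had no counts, folds are bounds against a floor of 3 counts per sample (1.04 CPM in hepatocytes, 0.816 CPM in spheroids). Where it had at most 3 counts in each sample, the ratio of summed counts is given with an exact 95% interval. Intervals and floors cover counting error only. On counts simulated for this comparison, edgeR recovered 196 of 200 genes changed 4-fold, with 10 other genes called among 12225 tested. The simulation gave every gene the same spread beyond counting error and changed only well-counted genes, equally up and down. Its figures therefore do not carry over to genes near 0 counts, to genes with a larger spread or to the effect of the scaling.

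The comparison, the 66 lists and the naming rule were all chosen with earlier results of these data known. Named were the 10 largest changes in each direction with at least 20 CPM in the higher group and no overlap, and from each list members with the largest changes at 10 CPM or more and members for which the list is best known. Genes singled out outside this rule were chosen after their values were seen. The other tools, scalings, filters, a single technical library, a fit over all groups, a replicate block, an undone saturation and each sample left out were tried as alternatives. Promoter sequences are from RefSeq on GRCm38.p6, and windows were found by symbol for 9170 of the genes tested, under 80%. No motif share over all tested or all called genes is therefore given, and counts among ATF4 targets cover only those with a window. Data of the other groups are not analysed here beyond values of 3 livers set side by side.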

Additional observations from a re-analysis of the deposited data

How the results depend on the processing

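The counts of genes higher and lower in spheroids stayed within 1.5 times of 996 and 1116 under DESeq2 (984 and 1121), limma-voom (961 and 1038), size factors of the DESeq2 type (1007 and 1104), no filter on low counts (1406 and 1357), at least 10 counts in every sample (668 and 839), a single technical library (748 and 885), a fit over all groups (1310 and 1385) and undone saturation (996 and 1145). The count of higher genes went to 1531 with library size alone, where 65.5% of calls were higher instead of 47.2%, and to 1526 without a fold change limit. Leaving out single samples gave 705 to 970 higher and 761 to 1080 lower genes. With the replicate number as a block, 892 were higher and 1093 lower. The block called Glul (adjusted p = 0.00154) and Cyp7a1 (adjusted p = 0.0365) and lost Hspa1a and Cyp2f2. With 2 spheroid samples the deviations of one mirror those of the other: spheroid sample 1 correlated with hepatocyte samples 1, 2 and 3 at 0.10, -0.14 and 0.041. There were only 2 pairs, and the labels do not state whether a number marks a shared animal. These values therefore cannot tell whether samples of the same number came from the same mouse.

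Of 152 genes named or plotted, 124 were called. Of these, 107 were called in each fit with a sample left out and 101 under each alternative, and none changed direction. Of 973 medians of lists recomputed under the alternatives, 129 moved by more than the spread, 28 of them with library size alone, and 49 changed sign. Limma-voom did not call Cd24a, Sprr1a, Hsd17b6, Hspa1a, Ccl2, Cd44 or Cyp2f2, and the fit over all groups did not call Cyp2a4 or Cyp2b9. Without the filter on low counts Glul and Cyp7a1 were called. With 2 spheroid samples the estimate of spread in that group rests on a single difference, and depth leaves 34270 of 46517 genes untested.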

Other observations

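Part of the pattern of sex-biased genes in spheroids had a counterpart in a sample outside the comparison. Liver 1 of the 3 livers held Hsd3b5, Elovl3, Slco1a1 and Cyp4a12a, all higher in male liver, at 1.62, 21.5, 20.7 and 33.1 CPM, where livers 2 and 3 held 255 and 186 CPM, 228 and 219.7 CPM, 598 and 689 CPM and 346 and 327 CPM. The same liver held the female-biased Cyp2b9, Cyp2a4 and Cyp17a1 at 223 CPM, 164 CPM and 322 CPM, where the other livers held 0.289 and 0 CPM, 1.16 and 0.265 CPM and 17.3 and 18.8 CPM. Its Y-linked Ddx3y was at 100.2 CPM, close to the 107 and 114 CPM of the other livers. Spheroids shared the direction in each of these sex-biased genes, and no test was run on 1 liver against the others. Other genes did not share it. The female-biased Sult1e1, which rose in spheroids, was at 1.62 CPM in liver 1 and 0.867 and 1.85 CPM in livers 2 and 3. Sult2a1, which also rose in spheroids, was at 0.269 CPM in liver 1 and 0 and 0 CPM in livers 2 and 3.

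The 2 spheroid samples differed from each other several-fold in single genes. Spheroid sample 1 held Cd44 at 78.9 CPM against 8.41 CPM in sample 2, Flna at 238 against 62.2 CPM, Vim at 182 against 64.9 CPM and Anxa3 at 176 against 32.1 CPM. The sum of all adhesion receptor genes listed was close, at 5039 and 4959 CPM. Sample 2 held more Slco1b2, at 236 against 19.5 CPM, Ugt2b1, at 123 against 17.04 CPM, and Cyp8b1, at 429 against 81.6 CPM. These genes were chosen after their values were seen, and with 2 samples the difference was not tested.

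Mcm10, a factor that starts DNA replication, was at 254, 382 and 274 CPM in hepatocytes and 3.41 and 3.6 CPM in spheroids (log2 fold change -6.42 ± 0.31, adjusted p = 4.74e-05), beside 183, 176 and 198 CPM in livers. The proliferation marker Mki67 did not exceed 4.74 CPM in the same hepatocyte and spheroid samples, and Mcm10 shared no exon bases with another gene. It was singled out after its values were seen.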
